A study of Mus musculus with 2 samples.

Results

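Mitophagy, the removal of damaged mitochondria by autophagy, was examined through 9 genes that sense, mark or tether the mitochondria to be removed: Pink1, Bnip3, Bnip3l, Fundc1, Optn, Sqstm1, Ulk1, Clec16a and Nbr1. Each of these 9 symbols named 1 of the 31053 genes counted in both libraries. Single cell RNA sequencing (10x Genomics, droplet-based, with molecules counted as unique molecular identifiers, UMIs) was performed on pancreatic islet cells from mice aged 2 weeks. One library came from WT mice and one from Npc1KO mice, which lack Npc1, a lysosomal membrane protein that exports cholesterol, in all tissues. Both genotypes were on the C57BL/6J background, the WT mice were littermates, and each library pooled the islets of 3 female mice. The study asked how loss of Npc1 affects β cells shortly after birth, and mitochondrial turnover was among the processes it followed.

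Mitochondria are tagged for removal by 2 main routes. In one, the kinase PINK1 accumulates on mitochondria that have lost their membrane potential and starts the building of ubiquitin chains, which are bound by the adaptors OPTN, SQSTM1 (p62) and NBR1. In the other, BNIP3, BNIP3L (NIX) and FUNDC1 sit in the outer mitochondrial membrane and bind the autophagosome directly. ULK1 is the kinase that starts autophagosome formation, and CLEC16A is an E3 ligase that regulates mitophagy in β cells and is linked to diabetes risk.

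With 1 library per genotype there was no replicate, so no test was made between genotypes, and every interval given here is a 95% interval that covers counting error only. WT and Npc1KO libraries held 8569 and 7646 barcodes, of which 4628 and 4269 passed the filters, with 94096566 and 94392651 UMIs. Cells were classed by their leading hormone (insulin, glucagon, somatostatin, or Ppy and Pyy together) at 10% or more of UMIs, and the remainder by markers as endothelial, stellate, mesenchymal or macrophage. The 8 classes held, in WT and Npc1KO, 1833 and 1826 insulin-leading (β) cells, 1048 and 857 glucagon-leading cells, 189 and 141 somatostatin-leading cells, 411 and 442 Ppy/Pyy-leading cells, 435 and 441 endothelial, 232 and 248 stellate, 64 and 70 mesenchymal and 51 and 34 macrophage cells. All fixed markers were highest in their own class, except 1 of 7 for glucagon-leading and 2 of 5 for Ppy/Pyy-leading cells, so the latter are named by their hormones only. This was largely set by the class rule and is no independent check of the names. Non-endocrine cells were classed by these same markers, and the endocrine lists include the leading hormones. Npc1 itself had 790 UMIs (8.40 CPM, counts per 1000000, here of all kept UMIs) in WT and 391 UMIs (4.14 CPM) in Npc1KO. The reads come from the 3' end of the transcript, and where the allele's lesion lies relative to that end was not examined, so this count does not check the label. The immediate-early and heat-shock genes that mark dissociation stress were higher in WT in every class, at 1933 against 613 CPM of the UMIs outside hormone genes in insulin-leading cells. Their part in the differences between the libraries was not tested, and the β cell ratios are also given without the cells highest in these genes.

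Levels are CPM of the UMIs outside 7 hormone genes, because hormones took 57.8% and 55.8% of the UMIs of insulin-leading cells in WT and Npc1KO. On this scale a median gene was lower in the non-endocrine classes than in insulin-leading cells, by −0.33 and −0.40 (log2, WT and Npc1KO) in endothelial, −0.26 and −0.35 in stellate, −0.36 and −0.51 in mesenchymal and −0.77 and −0.84 in macrophage cells, and the class differences below are to be read against those shifts. Each level is compared across classes and never between genes.

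Promoters are shown for a pair of genes picked after their values were seen, Bnip3, which divided endocrine from non-endocrine cells, and Optn, which varied within the insulin-leading cells. Of the 9 genes, 8 had an entry in the RefSeq promoter set (GRCm38.p6, 250 bases before to 50 after the start), and Bnip3l did not. The Bnip3 window is chr7:138909457-138909756 on the minus strand and the Optn window chr2:5064068-5064367 on the minus strand, both read 5′ to 3′ in the direction of transcription. Capitals in Bnip3 mark CACGTG, which holds the hypoxia-response core ACGTG on both strands in overlap, and capitals in Optn mark CAGATG (an E-box, here on the opposite strand and so printed as its reverse complement) and TAATTA (a homeobox core).
Bnip3: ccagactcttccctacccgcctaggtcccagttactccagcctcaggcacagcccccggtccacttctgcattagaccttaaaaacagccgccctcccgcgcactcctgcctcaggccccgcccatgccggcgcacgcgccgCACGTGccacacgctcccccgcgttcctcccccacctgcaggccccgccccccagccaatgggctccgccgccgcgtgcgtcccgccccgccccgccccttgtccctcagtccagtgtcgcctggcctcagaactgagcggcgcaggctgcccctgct
Optn: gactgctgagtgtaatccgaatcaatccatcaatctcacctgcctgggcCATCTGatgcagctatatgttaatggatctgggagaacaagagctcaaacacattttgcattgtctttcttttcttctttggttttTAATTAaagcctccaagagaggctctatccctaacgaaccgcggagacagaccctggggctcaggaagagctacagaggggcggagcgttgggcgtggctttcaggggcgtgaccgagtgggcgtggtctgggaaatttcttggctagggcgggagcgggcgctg
CACGTG began 108 bases before the Bnip3 start and was found in 7.15% of 32851 promoters, and ACGTG in 19.6%. ACGTG was also present in the window of the second Nbr1 start and in none of the other 6 genes with a window. Other forms of the hypoxia-response core, such as GCGTG, were not searched. In Optn, CAGATG began at −201 and TAATTA at −115, and these were found in 17.2% and 5.29% of promoters. A match is a run of letters and not a bound site.

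Bnip3 divided endocrine from non-endocrine cells. It was at least 2-fold lower in both libraries in endothelial, stellate and mesenchymal cells than in insulin-leading cells, and no other gene of the 9 was, in any of these 3 classes. For comparison, 28.7% of 13396 genes were that much lower in endothelial, 26.0% in stellate and 23.8% in mesenchymal cells, where 1 of 9 genes was. Bnip3 stayed past 2-fold in these 3 classes under each alternative of cells and scale. In stellate cells (9 and 10 UMIs in WT and Npc1KO) and mesenchymal cells (4 and 4), Bnip3 was counted only through its UMIs in insulin-leading cells. The upper ends of its ratio over insulin-leading cells were 0.176 and 0.167 in stellate and 0.247 and 0.225 in mesenchymal cells. None of the 9 was 2-fold higher in both libraries in any class, against 16.3% of genes in endothelial, 13.6% in stellate, 11.7% in mesenchymal and 9.97% in macrophage cells.

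**Figure D1:**
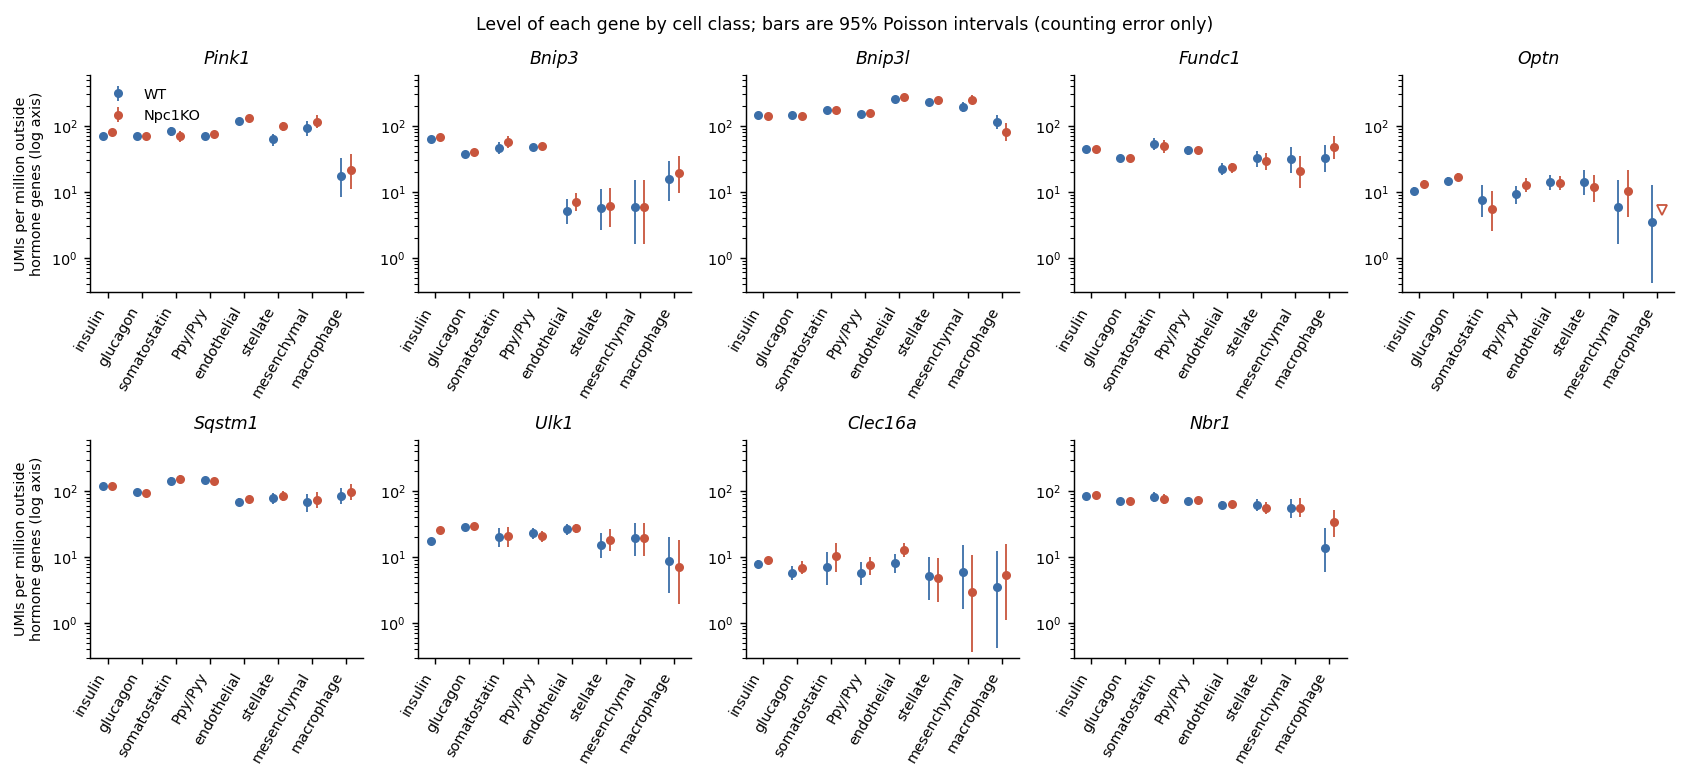
Level of each gene (CPM of the UMIs outside hormone genes, log axis) in the 8 cell classes, blue for WT and red for Npc1KO. Points are summed UMIs with 95% Poisson bars, and open triangles mark the level of 3 UMIs where none was counted. Bnip3 drops in the non-endocrine classes, while Pink1 and Bnip3l are highest in endothelial cells.

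Bnip3 lies on chromosome 7 (138890836 to 138909519, minus strand, GRCm38) and encodes a receptor that hypoxia induces. An antisense gene, Gm45507, overlaps its 3' end, and Mrnip overlaps that of Sqstm1 on the opposite strand, and the 3' kit marks strand. Its level was 62.3 CPM in WT and 67.9 CPM in Npc1KO insulin-leading cells (1440 and 1625 UMIs), and 5.10 and 7.13 CPM in endothelial cells (22 and 39 UMIs). Stellate cells held 5.76 and 6.13 CPM (9 and 10 UMIs), mesenchymal cells 5.99 and 5.94 CPM (4 and 4 UMIs), and macrophages 15.7 and 19.5 CPM (9 and 11 UMIs). As point values the endocrine and non-endocrine ranges did not overlap, since the lowest endocrine value was 37.8 CPM in WT glucagon-leading cells. Within each library the intervals of glucagon-leading and macrophage cells were separate. Across libraries, those of Npc1KO macrophages (9.74 to 34.9) and WT glucagon-leading cells (34.4 to 41.4) overlapped. The point values of Nbr1 separated as well, though by less. Its lowest endocrine value was 69.8 CPM (65.0 to 74.9) in Npc1KO glucagon-leading cells. Its highest non-endocrine value was 64.1 CPM (57.6 to 71.2) in Npc1KO endothelial cells, and these intervals overlapped. The share of all genes whose ranges separate in this way was not counted. For Bnip3, endothelial cells were 11.9-fold lower than insulin-leading cells in WT and 9.41-fold lower in Npc1KO. Among endocrine cells, glucagon-leading cells were 1.65- and 1.68-fold lower than insulin-leading cells, with intervals of the ratio at 0.545 to 0.675 in WT and 0.534 to 0.659 in Npc1KO.

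The share of cells with a Bnip3 UMI was also lower in each non-endocrine class than in any endocrine class, while the order inside these sets of classes was not that of the levels. After each cell was thinned to 3000 UMIs outside hormones, 16.0% (exact interval 14.4 to 17.8%) of 1797 WT insulin-leading cells and 1.65% (0.666 to 3.37%) of 424 WT endothelial cells had one. In Npc1KO the shares were 17.1% of 1778 and 2.51% of 439 cells. Unthinned, they were 52.9% and 5.06% in WT, with median depths of 12404 and 7572 UMIs outside hormones. Free RNA in the droplets could give part of the endothelial UMIs. Read from insulin, which was present in endothelial cells at 3.09% (WT) and 1.78% (Npc1KO) of its share in insulin-leading cells, free RNA would account for 16.3% and 7.59% of the Bnip3 UMIs there. With this amount subtracted, the numbers of genes 2-fold higher or lower were the same in each non-endocrine class.

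Pink1, the kinase that senses damaged mitochondria, did not share the pattern of Bnip3. The gene lies on chromosome 4 (138313409 to 138326307, minus strand). Its level was 119 CPM (109 to 130) in WT and 133 CPM (124 to 143) in Npc1KO endothelial cells, the highest class in both libraries, against 69.2 and 81.4 CPM in insulin-leading cells. The endothelial ratio was 1.72 (1.55 to 1.90) and 1.64 (1.499 to 1.78). Glucagon-leading cells stood at 69.5 and 69.7 CPM, somatostatin-leading at 82.3 and 69.5 CPM, Ppy/Pyy-leading at 71.3 and 76.1 CPM and mesenchymal at 91.3 and 116 CPM. The mesenchymal intervals overlapped those of endothelial cells in both libraries. Macrophages were lowest, at 17.4 and 21.3 CPM from 10 and 12 UMIs.

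Bnip3l also differed from Bnip3, its paralogue. Bnip3l, on chromosome 14 (66985239 to 67008877, minus strand), is the receptor that clears mitochondria from maturing red cells. It was highest in endothelial cells, at 258 and 276 CPM in WT and Npc1KO, and stood at 227 and 247 CPM in stellate and 192 and 250 CPM in mesenchymal cells. The endothelial intervals overlapped those of stellate cells in both libraries and that of mesenchymal cells in Npc1KO. Insulin-leading cells held 146 and 140 CPM and glucagon-leading cells 145 and 142 CPM, and macrophages were lowest at 115 and 81.6 CPM. Over the 16 class-by-library points, log2 levels of Bnip3 and Bnip3l had a Pearson correlation of −0.61, a description of points that share libraries and depth. Bnip3 stood at 0.90 with Sqstm1 and 0.80 with Fundc1, and its other pairs lay between −0.21 (Pink1) and 0.36 (Nbr1). On CPM of all UMIs, hormones included, Pink1 and Bnip3l were 2-fold higher in endothelial, stellate and mesenchymal than in insulin-leading cells. Optn, Ulk1 and Clec16a were so in endothelial cells. With a TMM factor Pink1 and Bnip3l were so in endothelial cells, and the count of 0 above thus depends on the scale. Hormones took 57.8% and 55.8% of UMIs in insulin-leading but 2.06% and 1.14% in endothelial cells (WT and Npc1KO). Counting them in the total raises every other gene in endothelial relative to insulin-leading cells. The share of all genes 2-fold higher on these scales was not counted.

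Fundc1, on the X chromosome (17556564 to 17572325, minus strand), was highest in somatostatin-leading cells at 53.4 and 48.8 CPM and stood at 44.7 and 44.1 CPM in insulin-leading cells, with overlapping intervals. Npc1KO macrophages held 47.9 CPM. Endothelial cells held 22.5 and 23.4 CPM, 1.98- and 1.88-fold less than insulin-leading cells, just short of the 2-fold limit. Glucagon-leading cells, at 32.4 and 32.3 CPM, were 1.38- and 1.36-fold below insulin-leading cells.

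The adaptors differed in which endocrine class had the highest level. Sqstm1 (chromosome 11, 50199366 to 50210827) stood at 149 and 144 CPM in Ppy/Pyy-leading and 143 and 154 CPM in somatostatin-leading cells, 121 and 120 CPM in insulin-leading and 97.9 and 95.4 CPM in glucagon-leading cells. In WT the somatostatin-, insulin- and glucagon-leading levels had separate intervals. Endothelial cells held 69.6 and 75.1 CPM of Sqstm1, 1.74- and 1.60-fold less than insulin-leading cells. Nbr1 (chromosome 11, 101552149 to 101581951) was highest in insulin-leading cells at 83.7 and 88.2 CPM and lowest in macrophages at 13.9 and 33.7 CPM, from 8 and 19 UMIs. Somatostatin-leading cells, at 82.3 and 76.8 CPM, had Nbr1 intervals that overlapped those of insulin-leading cells. Optn (chromosome 2, 5020642 to 5064051) was highest in glucagon-leading cells at 14.7 and 16.9 CPM, against 10.3 and 13.4 CPM in insulin-leading and 7.63 and 5.49 CPM in somatostatin-leading cells. Endothelial cells (13.9 and 13.7 CPM) and stellate cells (14.1 and 11.7 CPM) had intervals that overlapped those of glucagon-leading cells. No Optn UMI was counted in Npc1KO macrophages. A count of 3 UMIs there would put insulin-leading cells 2.51-fold higher. The interval of the ratio of macrophages over insulin-leading cells ran from 0 to 0.492.

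Ulk1 (chromosome 5, 110784488 to 110810097) was likewise highest in glucagon-leading cells, at 28.8 and 29.9 CPM. Endothelial cells, at 26.4 and 27.4 CPM, had overlapping intervals. The level was 17.7 CPM in WT and 25.4 CPM in Npc1KO insulin-leading cells. Clec16a (chromosome 16, 10545339 to 10744878) was the most sparsely counted gene, with 340 and 434 UMIs over the 8 classes, and lay between 2.97 and 12.97 CPM.

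Between the endocrine classes, 0 of the 9 genes differed 2-fold from insulin-leading cells in both libraries in either direction. The shares of all genes that were 2-fold higher and lower were 6.77% and 7.63% for glucagon-leading, 7.05% and 5.69% for somatostatin-leading and 6.52% and 4.66% for Ppy/Pyy-leading cells. The 54 log2 ratios ran from −1.21, for Optn in Npc1KO somatostatin-leading cells on 9 UMIs, to 0.71, for Ulk1 in WT glucagon-leading cells. Macrophages were the class with most genes of the group low, and also the class with the largest share of all genes low. Pink1, Bnip3, Optn and Nbr1, 4 of 9, were 2-fold below insulin-leading cells in both libraries, against 34.8% of 13094 genes, from 51 and 34 cells. All 4 genes were counted here through their UMIs in insulin-leading cells. Macrophages held 10 and 12 UMIs of Pink1, 9 and 11 of Bnip3 and 8 and 19 of Nbr1 (WT and Npc1KO). The Optn call rests on 2 and 0 macrophage UMIs, and the interval of its WT ratio (0.420, 0.0406 to 1.23) includes equal levels. With a TMM factor 2 remained (Pink1 and Bnip3), and on CPM of all UMIs 0.

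Other genes of the machinery were counted in the same way. Of 76 genes in 5 lists (further receptors and regulators of mitophagy, mitochondrial dynamics, autophagy initiation, conjugation, and fusion with the lysosome), 4 were 2-fold lower and 1 higher in endothelial cells in both libraries, against the 28.7% and 16.3% of all genes given above. Among the endocrine classes 1 of the 76 differed by as much, Wipi1, which was lower in glucagon-leading cells. Of all genes, 6.77% were higher and 7.63% lower in glucagon-leading, 7.05% and 5.69% in somatostatin-leading and 6.52% and 4.66% in Ppy/Pyy-leading cells. The 4 genes lower in endothelial cells were Nipsnap1, Rhot2 (Miro2), Atg13 and Atg10. Nipsnap1 is a mitochondrial tag for autophagy, and Rhot2 ties mitochondria to microtubule motors. Atg13 is a partner of ULK1 and Atg10 a conjugation enzyme. The gene higher in endothelial cells was Map1lc3a, an LC3 gene. In macrophages 18 of the 76 were lower and 1 (Htra2, a mitochondrial protease) higher, against 34.8% and 9.97% of all genes. Of 15 hypoxia-inducible genes counted beside Bnip3, 5 were higher in endothelial cells (Ldha, Slc2a1, Adm, Ddit4 and Pfkfb3) and 2 lower (Ankrd37 and Vegfa). Over all genes, 16.3% were higher and 28.7% lower there. Adm had 10 and 0 UMIs in WT and Npc1KO insulin-leading cells, and so was counted only through the class where it was high. Bnip3 was 9.41- to 11.9-fold lower in endothelial cells. Of 9 NFE2L2 targets counted beside Sqstm1, 5 were lower and 1 (Hmox1) higher in endothelial cells, against the same 28.7% and 16.3% of all genes.

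The genes most alike over the 16 points were sought for Bnip3, Pink1, Optn and Ulk1, whose class levels span at least 3-fold in both libraries. Among 12616 genes, those were Smim10l2a (Pearson 0.98), Mien1 and 0610040J01Rik for Bnip3 and Mid2 (0.96), Bahcc1 and Tfdp2 for Pink1. For Optn they were Agap3 (0.96), Slc30a4 and Mief1, and for Ulk1 Helz (0.93), Cramp1l and Zswim8. The points share 2 libraries. Pink1, Optn and Ulk1 were lowest in macrophages in both libraries, on 10 and 12, 2 and 0, and 5 and 4 UMIs, so their spans rest on few UMIs.

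The genotypes were compared in insulin-leading cells as the log2 ratio of Npc1KO over WT relative to the median gene, which itself stood at 0.07. A gene was called when this ratio lay 0.32 or more from the median gene. Ulk1 was the only gene of the 9 past this limit. It had 409 UMIs in WT and 607 in Npc1KO insulin-leading cells, 17.7 and 25.4 CPM, a relative log2 ratio of 0.45 (0.27 to 0.64). Past the limit above the median gene were 11.5% of 12855 genes and below it 10.0%, so 1 of 9 above and 0 of 9 below is near the share of all genes. The median over the 9 genes was 0.06. After thinning, 4.84% of WT and 6.75% of Npc1KO insulin-leading cells had a Ulk1 UMI.

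**Figure D2:**
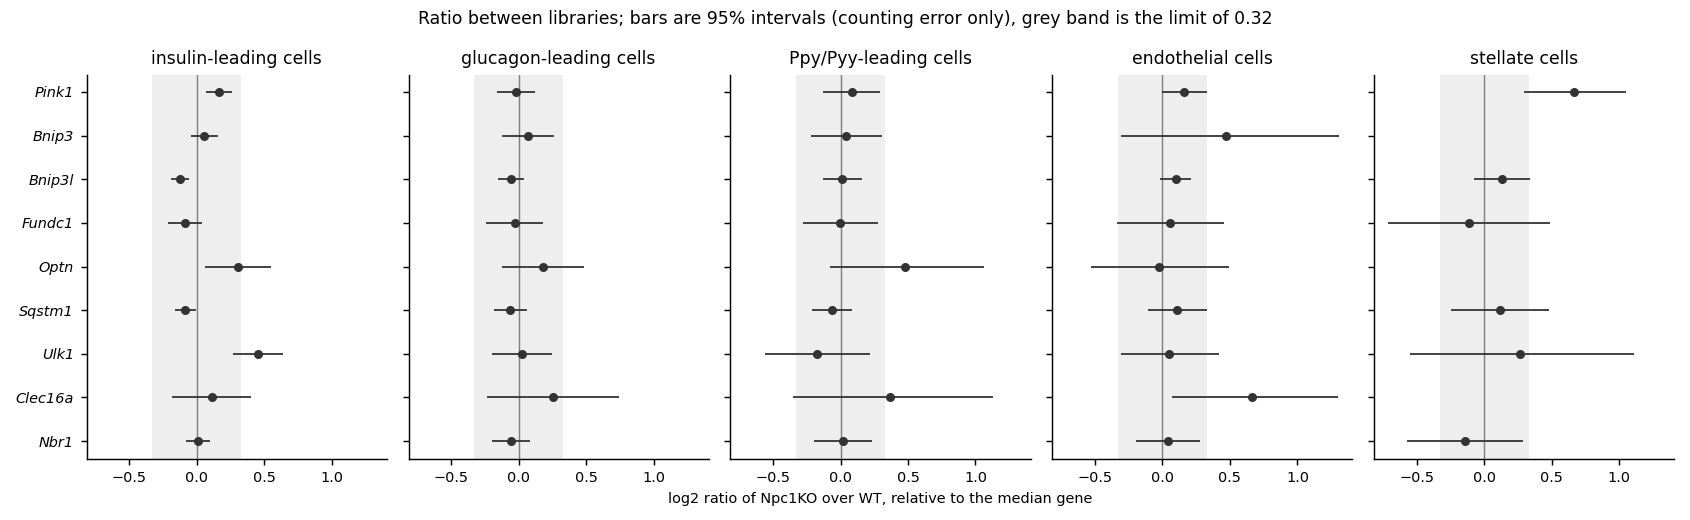
Relative log2 ratio of Npc1KO over WT (x axis) for each gene with at least 50 UMIs, in 5 cell classes, with 95% bars for counting error and a grey band at the limit of 0.32. Ulk1 lies to the right of the band in insulin-leading cells and near 0 in glucagon-leading and endothelial cells, and Pink1 lies to the right in stellate cells.

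Intervals lay above the median gene for 3 of the 9 (Ulk1, Pink1 and Optn) and below it for 2, against 21.3% and 24.8% of all genes, so such an interval was common among all genes at this depth. Pink1 had 1601 UMIs in WT and 1948 in Npc1KO, a relative log2 ratio of 0.17 (0.07 to 0.26), and Optn had 239 and 320 UMIs, 0.30 (0.06 to 0.55). Bnip3l stood at −0.12 (−0.19 to −0.05) and Sqstm1 at −0.08 (−0.16 to −0.01). The other genes had intervals that included the median gene, with 0.06 for Bnip3, −0.09 for Fundc1, 0.11 for Clec16a and 0.01 for Nbr1. On CPM of all UMIs, not set against the median gene, Bnip3l, Sqstm1 and Fundc1 stood at 0.01, 0.05 and 0.05, so their sign depends on the scale.

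Ulk1 lay inside the limit in the other classes where it reached 50 UMIs. It stood at 0.03 (−0.19 to 0.25) in glucagon-leading, 0.03 (−0.69 to 0.74) in somatostatin-leading, −0.17 (−0.56 to 0.22) in Ppy/Pyy-leading, 0.05 (−0.31 to 0.42) in endothelial and 0.26 (−0.55 to 1.11) in stellate cells. The difference between classes was not tested, because each genotype has 1 library. Without the insulin-leading cells in the top 10% for stress genes, which removed 348 WT and 18 Npc1KO cells, the ratio of Ulk1 in insulin-leading cells was 0.43, that of Optn 0.23 and that of Pink1 0.17, and the other 6 lay between −0.11 (Fundc1) and 0.08 (Bnip3).

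Of 46 gene and class pairs counted outside insulin-leading cells, 7 were past the limit above the median gene and 1 below, and the interval excluded the median gene in 3, each above it. Over all genes, the share with an interval above the median gene ran from 4.82% in somatostatin-leading to 9.99% in macrophage cells, so 3 of 46 pairs is no more than is seen among all genes. These 3 were Pink1 in stellate cells, from 97 to 160 UMIs (62.1 and 98.2 CPM, ratio 0.67, 0.30 to 1.05), Clec16a in endothelial cells, from 35 to 71 UMIs (0.67, 0.07 to 1.30), and Bnip3l in mesenchymal cells, from 128 to 168 UMIs (0.39, 0.05 to 0.74). The others were Bnip3 in endothelial cells (0.47), Pink1 in mesenchymal cells (0.35), Optn (0.48) and Clec16a (0.37) in Ppy/Pyy-leading cells and Bnip3l in macrophages (−0.51). In glucagon-leading cells, the second largest class, none of the 9 was past the limit. The shares of all genes above and below by that amount were 6.99% and 6.94% in glucagon-leading, 11.9% and 12.1% in somatostatin-leading, 9.86% and 9.82% in Ppy/Pyy-leading, 8.53% and 9.83% in endothelial, 12.6% and 13.3% in stellate, 18.3% and 18.4% in mesenchymal and 20.7% and 21.5% in macrophage cells.

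Other genes of the pathway in insulin-leading cells were set beside these, and each list count is to be read against the 11.5% of all genes above the limit and 10.0% below, and against 6427 of 12855 genes with a ratio over 0. In autophagy initiation, the step that ULK1 begins, 2 of 16 genes were past the limit above the median gene and 0 below, with a list median of 0.12 and 12 of 16 above 0, so the count past the limit is near the share of all genes. The 2 were Atg14, a subunit of the PI3-kinase complex (7.61 and 12.3 CPM, ratio 0.62), and Wipi1, which binds its lipid product (84.0 and 125 CPM, 0.50). The lowest were Atg101 (−0.21), a ULK1 complex subunit, and Nrbf2 (−0.08). In conjugation, which attaches LC3 and GABARAP proteins to membrane, 0 of 13 were past the limit, the list median was −0.13 and 3 of 13 lay above 0. Atg10 (−0.29) and Atg3 (−0.26) were lowest, and Atg16l1 (0.08) and Gabarapl1 (0.07) highest.

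**Figure D3:**
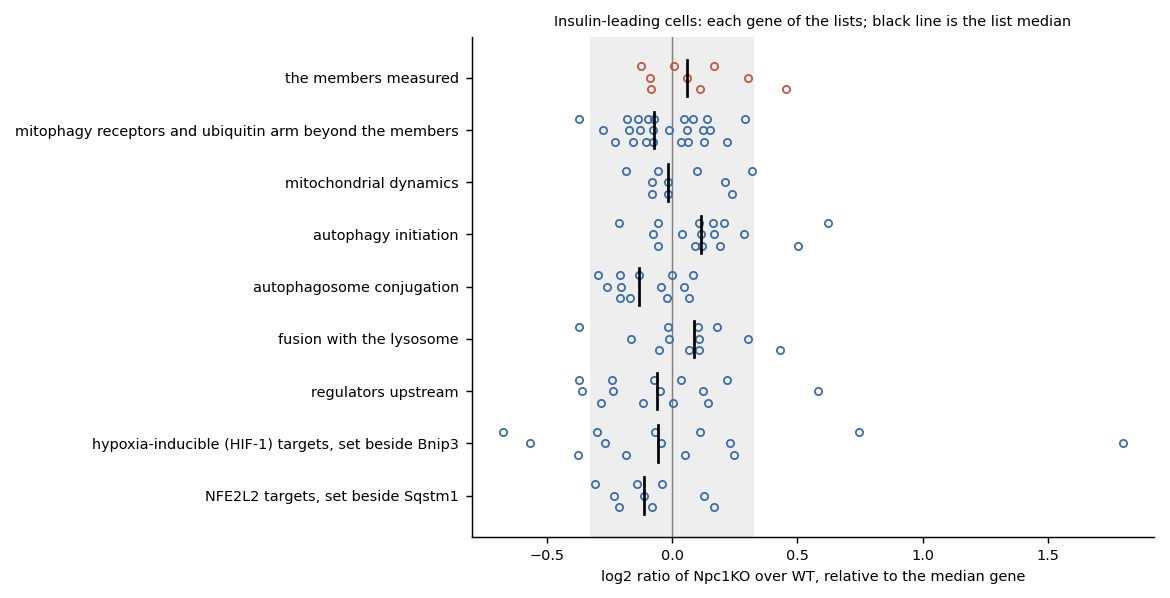
Relative log2 ratio of Npc1KO over WT (x axis) in insulin-leading cells for each of the 9 genes and of the other lists with at least 50 UMIs. Circles are genes, black lines list medians and the grey band the limit of 0.32, and the medians of initiation (0.12) and conjugation (−0.13) lie on opposite sides of 0, inside the band.

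Among 25 further receptors and regulators of mitophagy, 0 were above and 1 below, with a median of −0.07. Usp8 (0.29), a deubiquitinase, and Huwe1 (0.22), a ubiquitin ligase, were highest, and the mitochondrial protease Oma1 (−0.37, the gene past the limit) and Fundc2 (−0.27), a relative of Fundc1, were lowest. Of 10 mitochondrial dynamics genes none was past the limit, with a median of −0.02. The fusion GTPase Opa1 (0.32, just short of the limit) and the adaptor Mief1 (0.24) were highest, and the fission adaptors Mff (−0.18) and Fis1 (−0.08) lowest. Of 12 genes for fusion with the lysosome, Epg5 was above (0.43) and the SNARE Vamp7 below (−0.37), with Plekhm1 at 0.30 and Lamp1 at −0.17. Of 14 upstream regulators, 1 was above (Prkaa2, an AMPK subunit, 0.58) and 2 below (Atf4, −0.37, and Mitf, −0.36), with Hif1a at 0.22. Of 14 hypoxia-inducible genes, 2 were above (Pfkfb3, 2.21 and 8.11 CPM, 1.80, and Pdk1, 0.74) and 3 below (Ddit4, −0.68, Pgk1, −0.57, and Ankrd37), while Bnip3 stood at 0.06. Of 9 NFE2L2 targets none was past the limit, and Txnrd1 (0.17) and Osgin1 (0.13) were highest and Nqo1 (−0.31) and Hmox1 (−0.23) lowest.

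Within insulin-leading cells, the genes were followed along 3 scores: the share of Ppy+Pyy, hormones that immature β cells express, the share of Ucn3+Mafa, markers of β cell maturity, and the share of mitochondrial (mt-) transcripts. Cells of both libraries were cut into tertiles of each score, which are ranges and not cell types. Optn was the only gene of the 9 past the limit in both libraries along any score. By Ppy+Pyy, Optn stood at 12.96, 9.16 and 7.60 CPM in the lowest, middle and highest tertile of WT cells and at 20.9, 12.2 and 9.53 CPM in Npc1KO cells. The highest tertile lay below the lowest by −0.78 (−1.32 to −0.28) in WT and −1.16 (−1.55 to −0.77) in Npc1KO on the relative log2 scale. By Ucn3+Mafa the order was the opposite, with 8.40, 10.3 and 11.6 CPM in WT and 9.97, 12.0 and 20.1 CPM in Npc1KO, ratios of 0.50 (0.00 to 1.03) and 1.04 (0.66 to 1.43). Optn was thus highest in the cells with most maturity markers and least Ppy+Pyy in each library. In WT the lowest levels rest on 43 UMIs (highest Ppy+Pyy tertile) and 49 UMIs (lowest Ucn3+Mafa tertile).

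**Figure D4:**
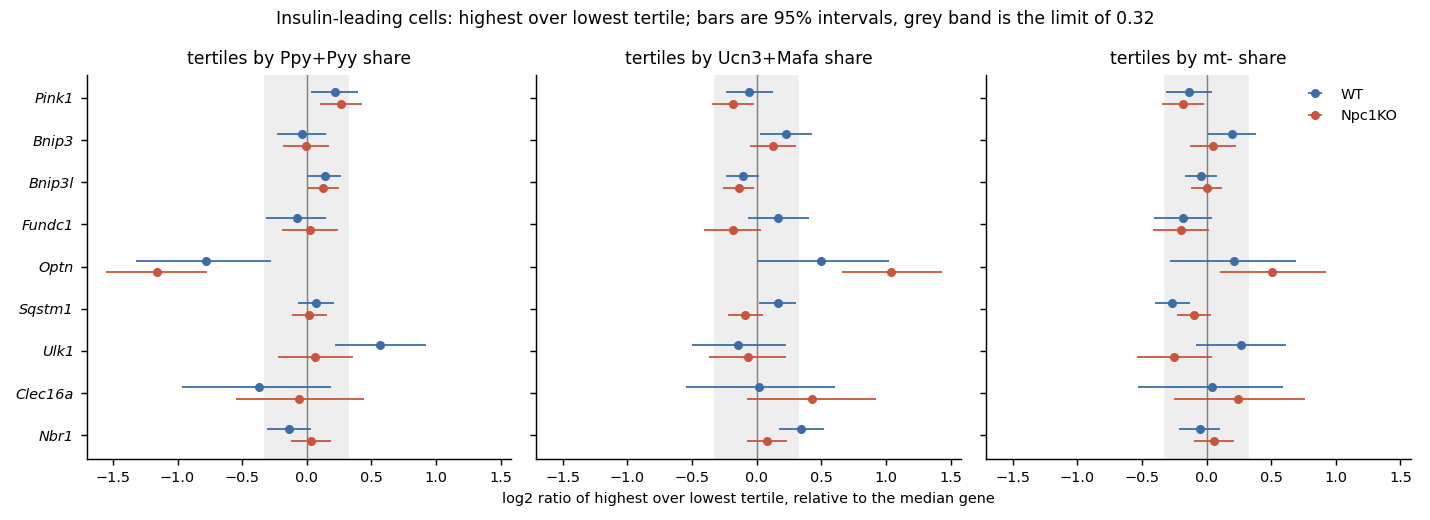
Relative log2 ratio of the highest over the lowest tertile of insulin-leading cells (x axis) for each gene, by Ppy+Pyy, Ucn3+Mafa and mt- share, blue for WT and red for Npc1KO, with 95% bars and a grey band at the limit of 0.32. Optn lies left of the band by Ppy+Pyy and right of it by Ucn3+Mafa in both libraries, and no gene is beyond the band in both by mt- share.

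By Ppy+Pyy, 1 of 9 genes was below and 0 above, against 6.50% and 7.31% of 10979 genes. By Ucn3+Mafa 1 was above and 0 below, against 7.54% and 11.2%, and by mt- share 0 were above and 0 below, against 3.50% and 3.64%. Counts of 0 or 1 of 9 are near these shares of all genes. Pink1 was slightly higher in the highest Ppy+Pyy tertile in both libraries, at 0.22 (0.03 to 0.40) and 0.26 (0.10 to 0.43). So was Bnip3l, at 0.14 (0.01 to 0.26) and 0.13 (0.01 to 0.25). By Ucn3+Mafa, Pink1 stood at −0.06 (−0.24 to 0.12) in WT and −0.18 (−0.34 to −0.02) in Npc1KO. The share of all genes with such intervals in both libraries was not counted. Stress genes also ran along the tertiles, from 1679 to 2264 CPM in WT and from 452 to 760 CPM in Npc1KO between the lowest and highest Ppy+Pyy tertile, and their part in the Optn order was not tested.

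The libraries filled the tertiles unequally. The highest Ppy+Pyy tertile held 24.3% of WT and 42.4% of Npc1KO insulin-leading cells, and the highest Ucn3+Mafa tertile 38.7% and 28.0%. Within tertiles, the genotype ratio of Optn was 0.63 (0.27 to 0.998) in the lowest Ppy+Pyy tertile, 0.35 in the middle and 0.26 (−0.26 to 0.83) in the highest. From the lowest to the highest Ucn3+Mafa tertile it was 0.20 (−0.30 to 0.73), 0.16 (−0.29 to 0.60) and 0.72 (0.34 to 1.11). By mt- share it was 0.31 (−0.16 to 0.78), −0.09 (−0.52 to 0.34) and 0.59 (0.18 to 1.04). The ratio of Ulk1 was 0.65 (0.32 to 0.99), 0.45 and 0.16 (−0.14 to 0.48) from the lowest to the highest Ppy+Pyy tertile, with WT cells at 15.2 CPM in the lowest and 22.8 CPM in the highest tertile, where Npc1KO cells stood at 24.8 and 26.5 CPM. The ratio was above 0 in each tertile by Ppy+Pyy and by Ucn3+Mafa. The ratio of Pink1 was 0.17 (−0.01 to 0.35), −0.01 (−0.18 to 0.16) and 0.23 (0.06 to 0.40) from the lowest to the highest Ppy+Pyy tertile. In the middle one it thus stood at the median gene, with an interval to both sides. From the lowest to the highest tertile it was 0.19, 0.23 and 0.05 by Ucn3+Mafa and 0.26, 0.12 and 0.20 by mt- share.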

How the data were processed

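Islet cells of WT and Npc1KO mice were profiled with the Chromium Single Cell 3' kit, whose version is v3 in the labels and differs in the paper's methods. Deposited values are UMI counts of each gene in each barcode, which Cell Ranger 3.1.0 produced on mm10 according to the submitters' processing notes (which also name Seurat 4.0.3) and which are not normalized. Barcodes were kept with more than 1000 genes, under 50000 UMIs, under 10% mt- UMIs and at most 0.1% haemoglobin. Doublets were not removed in the values reported, and 298 WT and 356 Npc1KO barcodes held a second hormone at 10% or more. 12 barcode sequences were shared between libraries, 3 of them among those kept. Barcodes with no leading hormone took the class of the highest mean marker score, with at least 3 markers detected and a lead of 0.5, limits set after the data were seen.

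UMIs were summed by class and library in Python 3.11.15 (pandas 2.3.3, scipy 1.17.1, numpy 2.4.6). Sums have exact Poisson intervals, ratios conditional binomial ones and shares Clopper-Pearson ones, all exact. Genotype ratios added 0.5 counts and were set against the median gene among those with at least 50 UMIs over both libraries. A gene was called at 0.32 on the log2 scale between genotypes or tertiles and at 2-fold, in both libraries, between classes. edgeR 4.0.16 (R 4.3.3) gave TMM factors and Scrublet (scanpy 1.11.5) doublet scores for alternatives. No p-value was computed, since each genotype has 1 library. Positions are from GENCODE M21 (GRCm38). The genes named beyond the 9 were the 2 highest and 2 lowest ratios of each list, and genes past a limit in a list, named after their values were seen, and the 3 genes most like each gene whose class levels span at least 3-fold in both libraries. The genes and the lists were chosen with earlier results of these data known, and some listed genes are not reported here and, left out after their values were seen, enter no count or median of the lists.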

Additional observations from a re-analysis of the deposited data

Results flagged for a closer look

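Bnip3l had genotype ratios past the limit in opposite directions in a pair of classes, with a relative log2 ratio of Npc1KO over WT of 0.39 in mesenchymal cells and −0.51 in macrophages. The macrophage value rests on 66 and 46 UMIs from 51 and 34 cells, and its interval (−1.09 to 0.05) includes the median gene. The difference between the classes was not tested.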

How the results depend on the processing

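Of 214 recomputed counts of genes past a limit, 200 stayed within 1.5 times the reported count and 14 did not. A reported count of 0 that stayed 0 is among the 200. The alternative UMI floors (20, 200 and none) could not change the class counts. Each gene passed them through insulin-leading cells, where Clec16a, the lowest, had 182 and 213 UMIs. The 200 were thus in part fixed in advance. In insulin-leading cells, 2 genes (Optn and Ulk1) were past the limit above without barcodes of a second hormone and on CPM of all UMIs, where 11.6% and 22.8% of all genes were, and 0 at a limit of 1.5-fold. Against insulin-leading cells, CPM of all UMIs gave 5 genes higher in endothelial, 2 in stellate and 2 in mesenchymal cells, and 0 lower in macrophage cells. The TMM factor gave 2 higher in endothelial and 2 lower in macrophage cells. A 1.5-fold limit gave 1 lower in glucagon-leading cells (Bnip3), 2 higher and 3 lower in endothelial cells, 1 higher in stellate cells and 2 lower in mesenchymal cells. Shares of all genes past the limit between classes were not counted under these alternatives. Over 9 alternatives of cells, scale and averaging, the ratio of Ulk1 in insulin-leading cells ran from 0.43 to 0.59, that of Pink1 from 0.16 to 0.30 and that of Optn from 0.10 (stricter cell filter) to 0.44. Subtracting free RNA was an alternative chosen after seeing the data. No paired analysis was possible because each genotype had 1 library. The cause of these changes was not tested. Depth limits the values in stellate, mesenchymal and macrophage cells, where Bnip3, Optn and Clec16a had 0 to 22 UMIs.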

Other observations

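Insulin-leading barcodes left out for holding 50000 UMIs or more, 153 in WT and 343 in Npc1KO, came from the same libraries and are not a replicate. Ulk1 stood at 20.6 CPM (16.5 to 25.3) in WT and 30.1 CPM (26.8 to 33.6) in Npc1KO. Pink1 stood at 54.5 CPM (47.7 to 61.9) and 78.0 CPM (72.8 to 83.6), Optn at 12.9 and 14.8 CPM and Bnip3 at 53.3 and 63.5 CPM. Bnip3l was at 129 CPM (119 to 141) in WT and 141 CPM (134 to 148) in Npc1KO, with overlapping intervals, against 146 and 140 CPM in the kept cells. These levels were not set against the median gene. The share of all genes with separate intervals in these barcodes was not counted. These barcodes can hold more than 1 cell. In the insulin-leading barcodes left out for mt- UMIs of 10% or more, 82 in WT and 60 in Npc1KO, Pink1 was at 47.5 CPM (32.7 to 66.7) and 49.4 CPM (32.0 to 72.9), and at 66.9 and 69.0 CPM when mt- UMIs were taken out of the total.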
